A study of Mus musculus with 9 samples.

Results

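Transcript levels of 36 genes of homologous recombination and DNA damage repair were examined in bone marrow cells of Spop(+/+) and Spop(D/D) mice. The genes were taken by symbol from the expression tables, with 2 of them under an older name in the normalized LSK values. The raw LSK counts were listed by gene identifier and matched to symbols. All 36 were listed in both tables, among 37187 genes in the table of LSK cells and 45076 in the table of neutrophils, and all 36 passed the filter on low counts in each comparison. Spop encodes the substrate-recognition subunit of a cullin ubiquitin ligase, and the series title names restraint of emergency blood formation through MyD88 as its subject.

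A cell with a double-strand break can repair it without loss by copying the sister chromatid. The ends are trimmed by nucleases, the BRCA1-BARD1, PALB2 and BRCA2 proteins prepare the trimmed strand for pairing, and a further group of proteins assists strand exchange. The Fanconi anaemia proteins, whose loss causes bone marrow failure in patients, open crosslinks for this route at stalled forks, while the kinases ATM and ATR halt the cell cycle. Many of these genes are known to be transcribed at higher levels in cells that replicate their DNA.

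The 9 RNA-seq libraries came from 4 groups of bone marrow cells of mice aged 4 to 12 weeks. LSK cells are the lineage-negative, Sca-1-positive and Kit-positive fraction that holds blood stem cells and early progenitors, and the other population was neutrophils sorted by Ly6G. The genotype was Spop(+/+), called wild type here, in 2 LSK and 2 neutrophil libraries, and Spop(D/D), titled KO and called knockout here, in 2 LSK and 3 neutrophil libraries. The allele and any Cre driver behind Spop(D/D) were not stated, and it was not stated whether each library of a group is a different animal. The p-values therefore describe how far these libraries spread, and that spread may be technical.

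Between 18827892 and 20264417 reads were counted in each LSK library, and 21012702 to 27434086 in each neutrophil library. A floor of 3 reads stood at 0.109 to 0.159 reads per 1e6 counted, before TMM scaling. Elsewhere CPM is a gene's reads per 1e6 reads of its library after TMM scaling, which evens out differences in library composition. The second LSK knockout library carries a neutrophil cell type label against its title. It had 0 reads of Ly6g, as had each other LSK library, and 644 CPM of the stem cell factor receptor Kit, and it was kept with the LSK knockout group. Whole-gene Spop transcript fell in LSK cells, from 380 and 390 to 312 and 305 CPM (log2 fold change -0.32, SE 0.0889, adjusted p = 0.0118, edgeR), a call that failed without wild-type library 1 or 2 (adjusted p = 0.0832 and 0.117). In neutrophils it stood at 135 and 193 CPM in wild-type libraries against 158, 178 and 210 CPM in knockout libraries, so the whole transcript did not separate the genotypes there. The second wild-type neutrophil library stood apart from the others, with 24948 CPM of 7 markers of MHC class II antigen-presenting cells against 17.3 to 554 CPM, 1885 CPM of 12 B cell markers against 3.32 to 78.6 CPM and 38747 CPM of 13 neutrophil markers against 224220 to 676010 CPM. The third knockout neutrophil library held 18391 CPM of 11 red cell markers against 2.33 to 3664 CPM in the others.

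Promoter sequences of RefSeq (build GRCm38.p6, 250 bases before to 50 bases after the start of transcription) were matched by symbol for 29 of the 36 genes, and the start lay in a GENCODE transcript of the gene for 25 of these. They were searched on both strands for letters of the kind bound by E2F factors, which drive genes of DNA replication: TTTCCCGC, TTTGGCGC or TTCCCGCC, the first and the last of which can overlap. Such letters were in the promoters of 6 of 16 members that rose in knockout LSK cells and of 4 of 13 that did not pass the test, against 6.94% of 9920 tested genes and 3.69% of 27025 genes of the table. The 6 were Bard1, Rad51ap1, Fancb, Fancg, Chek1 and Msh6 and the 4 were Brca2, Rad51c, Fancm and Chek2. The letters CCAAT, in either direction, were in 11 of 16 and 8 of 13 promoters (43.0% of tested genes) and TTTGAA, of the cell cycle homology region, in 2 of 16 and 0 of 13 (14.4%). These matches describe letters only. Stretches of 100 bases from 2 members that rose, Bard1 and Fancb, and 2 that did not pass, Brca2 and Chek2, are shown because the same kind of letters stood in both; capitals mark the E2F-type letters, TTTGAA in Bard1 and CCAAT or its reverse complement in Fancb and Chek2, and each sequence is read 5′ to 3′ on the strand of its gene.
Bard1 (chr1:71103123-71103222, minus strand): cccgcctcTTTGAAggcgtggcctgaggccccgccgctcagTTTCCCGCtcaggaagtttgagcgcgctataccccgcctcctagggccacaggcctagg
Fancb (chrX:164980369-164980468, plus strand): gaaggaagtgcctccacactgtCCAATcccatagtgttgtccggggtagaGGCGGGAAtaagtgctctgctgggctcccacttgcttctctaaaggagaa
Brca2 (chr5:150522403-150522502, plus strand): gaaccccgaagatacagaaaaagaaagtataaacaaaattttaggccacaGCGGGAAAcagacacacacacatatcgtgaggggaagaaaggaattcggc
Chek2 (chr5:110839781-110839880, plus strand): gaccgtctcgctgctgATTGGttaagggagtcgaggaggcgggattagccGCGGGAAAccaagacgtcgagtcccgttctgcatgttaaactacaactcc

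In knockout LSK cells 22 of the 36 genes rose and 0 fell, where 21.0% of the 13008 genes tested rose and 21.2% fell, 42.2% in all (edgeR quasi-likelihood test, adjusted p under 0.05 over all genes tested). Their median log2 fold change was 0.52, against -0.03 over all genes tested. The members that rose most were Bard1, Fancd2, Exo1, Fanca, Rad54l, Fancb and Chek1, each more than 2-fold, and rises were found in every step of the pathway, from end trimming to the checkpoint. The knockout libraries lay above both wild-type libraries for 28 members, below them for 3 (Rad52, Fance and Trp53bp1) and among them for 5. Over all genes tested, 34.6% lay above and 38.3% below, 72.9% in all. At an unadjusted p under 0.05 stood 26 members and 50.1% of genes. Reads of the 36 genes together took 0.188% and 0.193% of wild-type libraries and 0.232% and 0.227% of knockout libraries. In bulk samples, more cells that use a gene and more RNA of it per cell cannot be told apart.

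**Figure D1:**
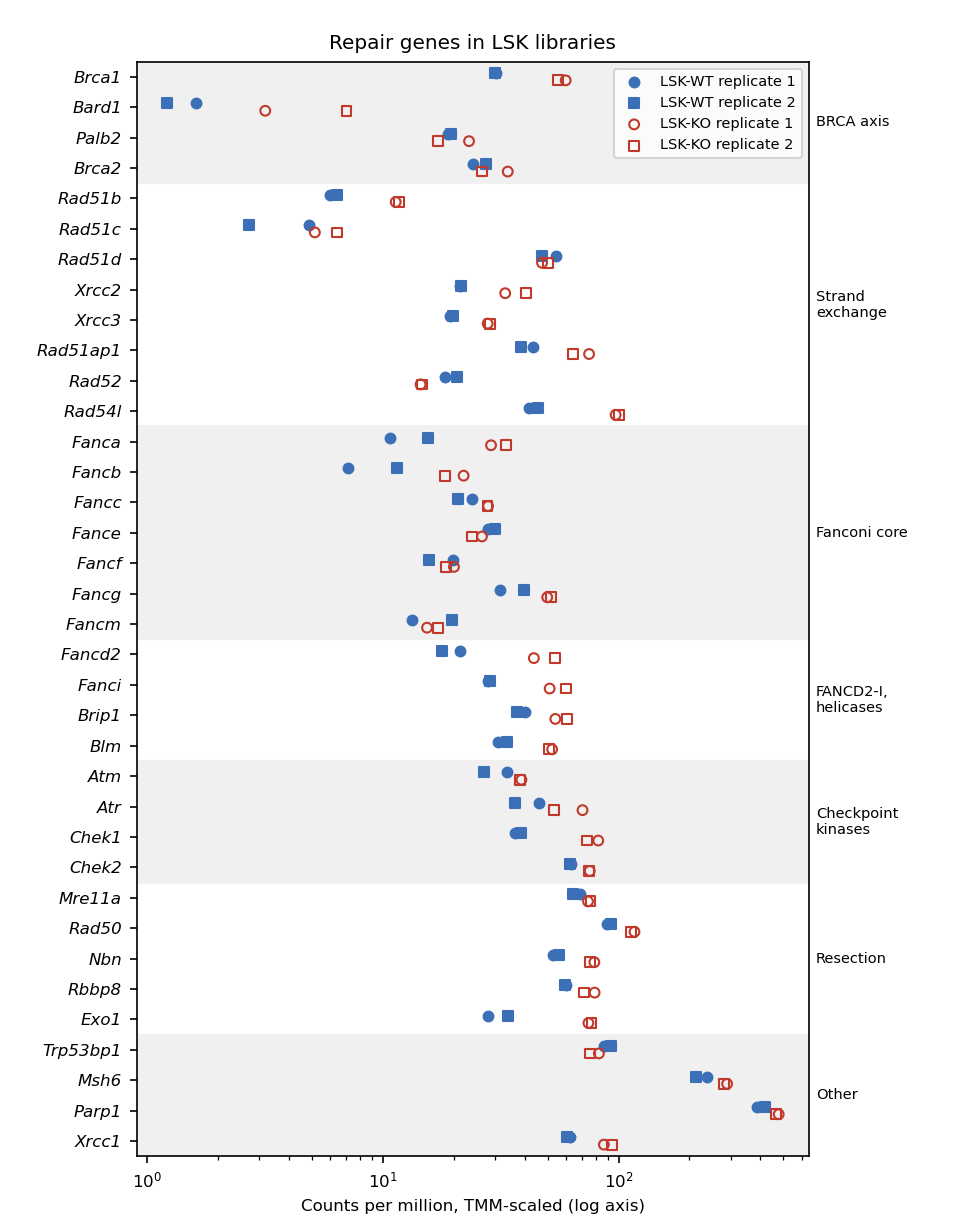
Levels of the 36 repair genes in each LSK library, in TMM-scaled CPM on a log axis, with wild-type libraries as filled blue and knockout libraries as open red symbols, grouped by role. The red symbols lie to the right of both blue ones for 28 genes and to the left for Rad52, Fance and Trp53bp1.

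Of the 4 genes of the BRCA proteins and their partners, Brca1 and Bard1 rose and Palb2 and Brca2 did not pass. Brca1 (GRCm38 chromosome 11, 101488764 to 101551955, minus strand), whose protein forms a ubiquitin ligase with BARD1, stood at 30.3 and 29.9 CPM in wild-type libraries against 59.7 and 55.3 CPM in knockout libraries (log2 fold change 0.93, SE 0.130, adjusted p = 1.1e-04, edgeR). Both knockout libraries lay far above wild type, by 1.91-fold in the fit. Its partner Bard1 (chromosome 1, 71027498 to 71103146, minus strand) stood at 1.62 and 1.22 CPM in wild-type libraries against 3.18 and 7.02 CPM in knockout libraries, a rise of 1.84 on the log2 scale (95% confidence interval 0.85 to 2.83). It was the least abundant member per kilobase of exon of coding transcripts, at 0.251 CPM per kilobase in wild type, with 26 to 132 reads a library. Its second knockout library stood well above the first, and its call was lost without wild-type library 2 (adjusted p = 0.0531) or the second knockout library (adjusted p = 0.0833). Palb2, the bridge between BRCA1 and BRCA2 and the most abundant of the 4 per kilobase in wild type (4.87 CPM per kilobase), stood at 18.9 and 19.5 against 23.2 and 17.2 CPM (adjusted p = 0.793). Brca2, which acts on the trimmed single strand, stood at 24.2 and 27.4 against 33.9 and 26.4 CPM (adjusted p = 0.308). In both of these the genotypes overlapped.

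Of 8 genes of strand exchange, 5 rose, with a median log2 fold change of 0.68 over the 8. Rad54l (chromosome 4, 116094264 to 116123690, minus strand), a DNA translocase of strand exchange, had the smallest p of all members, at 41.7 and 45.7 CPM in wild-type libraries against 97.3 and 100.5 CPM in knockout libraries (log2 fold change 1.18, SE 0.116, adjusted p = 8.4e-06). Of its exon bases 15.4% are shared with the opposite-strand gene Lrrc41, and the kit does not keep the strand. Rad51ap1, whose protein helps strands pair, stood at 43.3 and 38.8 against 75.02 and 63.9 CPM (log2 0.76, SE 0.132, adjusted p = 5.7e-04). Per kilobase Rad51ap1 was the most abundant of this group in wild type (18.4) and Rad51c the least (0.881). Both Rad54l and Rad51ap1 were higher in each knockout library than in any wild-type one.

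The other genes of the group differed. Xrcc2 stood at 21.2 and 21.5 CPM in wild-type libraries against 33.1 and 40.6 CPM in knockout libraries (log2 0.79, SE 0.160, adjusted p = 0.00172). Rad51b went from 5.98 and 6.37 to 11.4 and 11.8 CPM (log2 0.90) and Xrcc3 from 19.4 and 19.9 to 27.9 and 28.6 CPM (log2 0.52). Those 3 genes rose with no overlap of the genotypes, although Rad51b failed without wild-type library 1 (adjusted p = 0.0548) and Xrcc3 without library 1 or 2 (adjusted p = 0.102 and 0.0747). Rad51c, at 4.87 and 2.72 against 5.16 and 6.38 CPM (log2 0.61, adjusted p = 0.184), and Rad51d, at 54.2 and 47.6 against 47.4 and 50.4 CPM (adjusted p = 0.745), did not pass. Rad52, which anneals single strands, was the member of lowest log2 fold change, at 18.4 and 20.8 CPM in wild-type libraries against 14.5 and 14.7 CPM in knockout libraries (log2 -0.43, 95% confidence interval -0.83 to -0.03, adjusted p = 0.0785). Both knockout libraries were below wild type, and Rad52 passed as lower with upper-quartile scaling (adjusted p = 0.0354) or with library totals in place of TMM factors (adjusted p = 0.0216).

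The Fanconi core complex, a ubiquitin ligase assembled at DNA crosslinks, divided. Fanca (chromosome 8, 123268300 to 123318576, minus strand) stood at 10.8 and 15.6 CPM in wild-type libraries against 28.8 and 33.2 CPM in knockout libraries (log2 1.23, SE 0.202, adjusted p = 4.1e-04). Fancb, an X-linked subunit of the catalytic module, stood at 7.10 and 11.5 against 22.04 and 18.4 CPM (log2 1.12, SE 0.243, adjusted p = 0.00296). Fancg, an adaptor subunit, stood at 31.4 and 39.8 against 49.9 and 51.6 CPM (log2 0.51), a call lost without wild-type library 1 (adjusted p = 0.154). These 3 of 7 rose, with the genotypes apart. Fancc stood at 23.9 and 20.9 against 28.0 and 27.8 CPM (adjusted p = 0.134) and Fance, the most abundant of the 7 per kilobase in wild type (14.3 against 2.06 for Fanca), at 28.0 and 29.95 against 26.4 and 23.9 CPM (adjusted p = 0.310). Neither passed, though the libraries of the genotypes did not overlap. Fancf, at 19.9 and 15.7 against 20.1 and 18.5 CPM, and Fancm, the translocase that anchors the complex on DNA, at 13.3 and 19.7 against 15.4 and 17.2 CPM, overlapped between genotypes (adjusted p = 0.654 and 0.954). Reads from an opposite-strand gene cannot be told apart from those of some of these genes: 10.5% of the exon bases of Fanca are shared with Zfp276, 18.6% of those of Fancc with other genes and 15.0% of those of Fancf with Gas2.

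The pair that the core complex ubiquitinates and the 2 helicases listed with it all rose. Fancd2 (chromosome 6, 113531682 to 113597017, plus strand) stood at 21.2 and 17.9 CPM in wild-type libraries against 43.8 and 53.6 CPM in knockout libraries (log2 1.32, SE 0.160, adjusted p = 4.0e-05). Fanci, its partner in the clamp that closes on damaged DNA, stood at 28.1 and 28.4 against 51.1 and 59.7 CPM (log2 0.97, SE 0.138, adjusted p = 1.3e-04), with 16.0% of its exon bases shared with the opposite-strand gene Polg. Both partners rose, and no wild-type library reached a knockout one. Blm, the RecQ helicase lost in Bloom syndrome, stood at 30.9 and 33.6 against 52.3 and 50.7 CPM (log2 0.68, SE 0.131, adjusted p = 0.00126). Brip1, a helicase that binds BRCA1, went from 40.3 and 37.0 to 54.0 and 60.5 CPM (log2 0.57). Per kilobase the 4 genes stood close together in wild type, between 3.54 for Fancd2 and 6.51 for Blm.

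Among the checkpoint kinases, the pair that answers to stalled forks rose. Chek1 (chromosome 9, 36708482 to 36727065, minus strand), the kinase that ATR activates, stood at 36.3 and 38.7 CPM in wild-type libraries against 82.1 and 73.4 CPM in knockout libraries (log2 1.05, SE 0.124, adjusted p = 3.3e-05). Atr went from 46.0 and 36.4 to 70.4 and 53.4 CPM (log2 0.59), a call lost without wild-type library 2 (adjusted p = 0.123). The kinases of the double-strand break response did not pass: Atm stood at 33.7 and 26.9 against 38.8 and 38.1 CPM (log2 0.35, adjusted p = 0.0834). Chek2, the kinase downstream of ATM, stood at 62.9 and 62.3 against 75.5 and 74.98 CPM (log2 0.27, adjusted p = 0.0734). Both lay higher in both knockout libraries without passing the test. Per kilobase Chek2 was the most abundant of the 4 kinases in wild type (27.5) and Atm the least (3.02).

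Of the 5 genes of break sensing and end trimming, 4 rose. Exo1 (chromosome 1, 175880581 to 175913489, plus strand), the exonuclease of long-range trimming, stood at 27.9 and 34.0 CPM in wild-type libraries against 74.6 and 76.9 CPM in knockout libraries (log2 1.29, SE 0.134, adjusted p = 1.2e-05). The others moved by much less. Nbn stood at 52.6 and 55.9 against 79.0 and 75.8 CPM (log2 0.51) and Rad50 at 89.6 and 92.7 against 117 and 113 CPM (log2 0.33). Their partner in the break-sensing complex, Mre11a, stood at 68.5 and 64.1 against 74.2 and 76.1 CPM (log2 0.18, adjusted p = 0.218) and did not pass. Rbbp8, which encodes CtIP, the cofactor that starts trimming, stood at 60.0 and 59.6 against 79.2 and 71.4 CPM (log2 0.33, adjusted p = 0.0354). The genotypes did not overlap at any of the 5 genes, and 72.9% of all genes tested did not overlap either. The calls of Rad50 and Rbbp8 were lost without wild-type library 1 (adjusted p = 0.134 and 0.132) or without wild-type library 2 (adjusted p = 0.0854 and 0.142), and that of Rbbp8 also without the first knockout library (adjusted p = 0.0840). Per kilobase Nbn was the most abundant in wild type (21.4) and Exo1 the least (3.97).

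The remaining 4 genes serve neighbouring routes. Xrcc1, the scaffold of single-strand break repair, stood at 62.3 and 60.5 CPM in wild-type libraries against 86.7 and 93.6 CPM in knockout libraries (log2 0.55, SE 0.112, adjusted p = 0.00166). Msh6, a mismatch recognition protein, went from 238 and 212 to 289 and 281 CPM (log2 0.34), a call lost without wild-type library 2 (adjusted p = 0.174). Both rose with the genotypes apart. Parp1, which marks breaks with poly(ADP-ribose), was the most abundant member per kilobase in wild type (104), at 387 and 419 CPM against 478 and 464 CPM (log2 0.22, adjusted p = 0.0675). It did not pass with all libraries and passed without the first or the second knockout library (adjusted p = 0.0425 and 0.0345). Trp53bp1, whose protein shields ends from trimming and favours end joining, stood at 86.6 and 92.7 against 82.6 and 75.9 CPM (log2 -0.18, adjusted p = 0.216) and was the least abundant of the 4 per kilobase (9.31). Its knockout libraries were both below wild type, and 15.0% of its exon bases are shared with the opposite-strand gene Tubgcp4.

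The 12 members of smallest p are those given above with SE and adjusted p, and the others that rose had adjusted p-values of 0.00328 (Nbn) to 0.0354 (Rbbp8). Without the second knockout library, whose labels conflict, 22 members rose, 21 of them among the 22 above, with Bard1 lost and Parp1 gained. Library totals in place of TMM factors moved the median of all genes by -0.16 on the log2 scale. With them 17 members rose and 2 fell (Rad52 and Trp53bp1), and Fancg, Msh6, Rad50, Rbbp8 and Xrcc3 did not pass. With upper-quartile scaling 19 rose and 1 fell (Rad52), and Msh6, Rad50 and Rbbp8 did not pass. The share of calls that were rises over all genes was 49.8% with TMM factors, 32.3% with library totals and 39.0% with upper-quartile scaling. It was 54.2% with the DESeq2 Wald test. In an edgeR fit over all 9 libraries, which shares its spread with the neutrophils, no member passed (adjusted p = 0.617 or more). DESeq2 on the LSK libraries called the same 22 members and Parp1.

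Genes outside the 36 were read from lists of related pathways, beside the 21.0% of all genes tested that rose and the 21.2% that fell. Of 33 other homologous recombination and Fanconi genes 13 rose and 0 fell, with a median log2 fold change of 0.37. Among them the ATPase gene Fignl1 rose from 120.0 to 261 CPM (log2 1.12) and the trimming nuclease Dna2 from 38.0 to 85.3 CPM (log2 1.17). Of 20 other checkpoint genes 11 rose and 0 fell (median 0.35), among them Topbp1, an activator of ATR (log2 0.73), Timeless (log2 0.76) and Clspn, the adaptor of CHEK1 (log2 1.08). Of 11 end joining genes 0 rose and 3 fell (27.3%, near the share of all genes, median -0.28): Paxx (log2 -1.01), Xrcc6 (log2 -0.32) and Xrcc5 (log2 -0.41), the last 2 encoding the Ku heterodimer. Of 6 other mismatch repair genes 2 rose, Pms2 among them (log2 0.38). Of 20 base excision genes 4 rose (near the share of all genes), the ligase gene Lig1 among them (log2 0.74), and of 17 nucleotide excision genes 5 rose and 4 fell (29.4% and 23.5%), Xpc among the latter (log2 -0.67). Of 18 p53 target genes 8 fell and 1 rose: Trp53inp1, Btg2 and Bbc3 had log2 fold changes of -1.61, -0.98 and -1.01, and the pro-apoptotic gene Pmaip1 rose from 3.35 to 34.8 CPM.

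**Figure D2:**
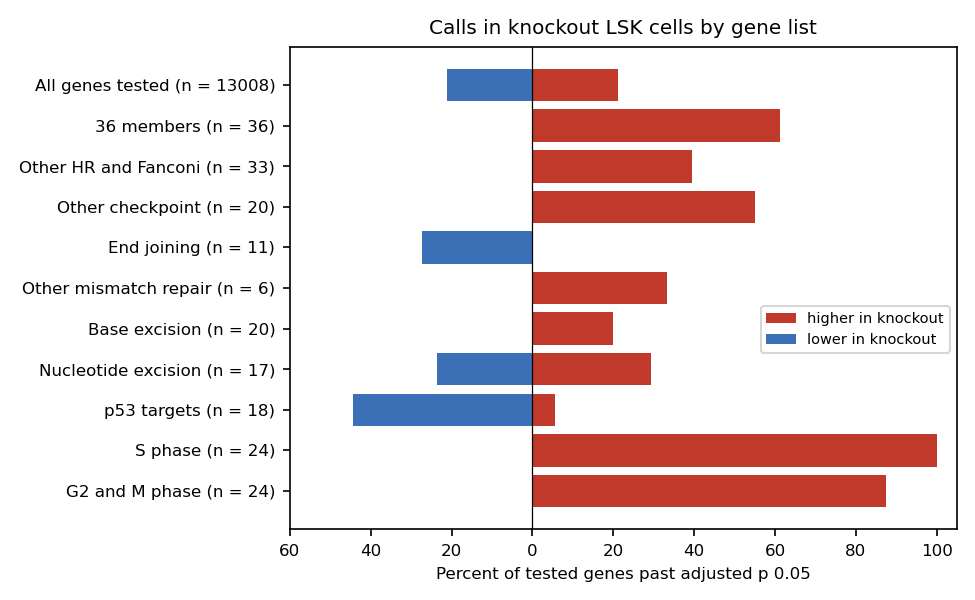
Percent of the tested genes of each list that passed the adjusted p threshold of 0.05 in knockout LSK cells, higher to the right in red and lower to the left in blue, beside all 13008 genes tested. The 36 members had rises and no falls, end joining genes falls and no rises, and every S phase gene rose.

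Genes of the cell cycle moved with the repair genes, where 21.0% of all genes tested rose and 21.2% fell. All 24 genes of the S phase list rose, with a median log2 fold change of 0.80, and summed to 5050 and 4803 CPM in wild-type libraries against 8453 and 9081 CPM in knockout libraries. Of 24 genes of G2 and M phase 21 rose and 0 fell (median 0.93). Of the markers of dividing granulocyte precursors all 7 rose, and they summed to 1572 and 2100 CPM in wild-type libraries against 16023 and 18808 CPM in knockout libraries. Of 11 stem and progenitor markers 9 fell and 1 rose, and they summed to 5149 and 4884 against 2885 and 3139 CPM. Of 13 mature neutrophil markers, 11 were tested, 3 rose and 3 fell (27.3% each, near the share of all genes). The 13 summed to 234 and 246 against 352 and 291 CPM, with Ly6g at 0 reads throughout. All 11 tested B cell markers fell (sums 293 and 271 against 72.2 and 78.5 CPM), 8 of 11 red cell markers fell (131 and 193 against 59.9 and 105.2 CPM), and of 10 monocyte markers 5 rose and 4 fell (106 and 139 against 549 and 791 CPM). The part of these shifts in the rise of the repair genes was not tested.

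In neutrophils none of the 36 genes passed the test, and 0 of 12836 genes did (0 percent in each direction, edgeR). At an unadjusted p under 0.05 stood 2 members, Parp1 and Atm, and 1787 genes in all (13.9%). With DESeq2 278 genes passed as higher and 613 as lower, and Parp1 was the 1 member among them. The median log2 fold change of the members was -0.18 against 0.02 over all genes, with 14 members above 0 and 22 below; library totals in place of TMM factors moved the median of all genes by -0.66. Genotypes did not overlap at 2 members that were higher in knockout (Blm and Mre11a) and 5 that were lower (Palb2, Fance, Fancf, Atm and Parp1), where 17.1% of genes were higher and 17.5% lower. The 36 genes summed to 439 and 319 CPM in wild-type against 388, 283 and 269 CPM in knockout libraries. Per kilobase Parp1 was the most abundant member in wild-type neutrophils (14.8) and Rad51b the least (0.183), at 0.605 and 0.691 against 1.09, 0.237 and 1.22 CPM.

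**Figure D3:**
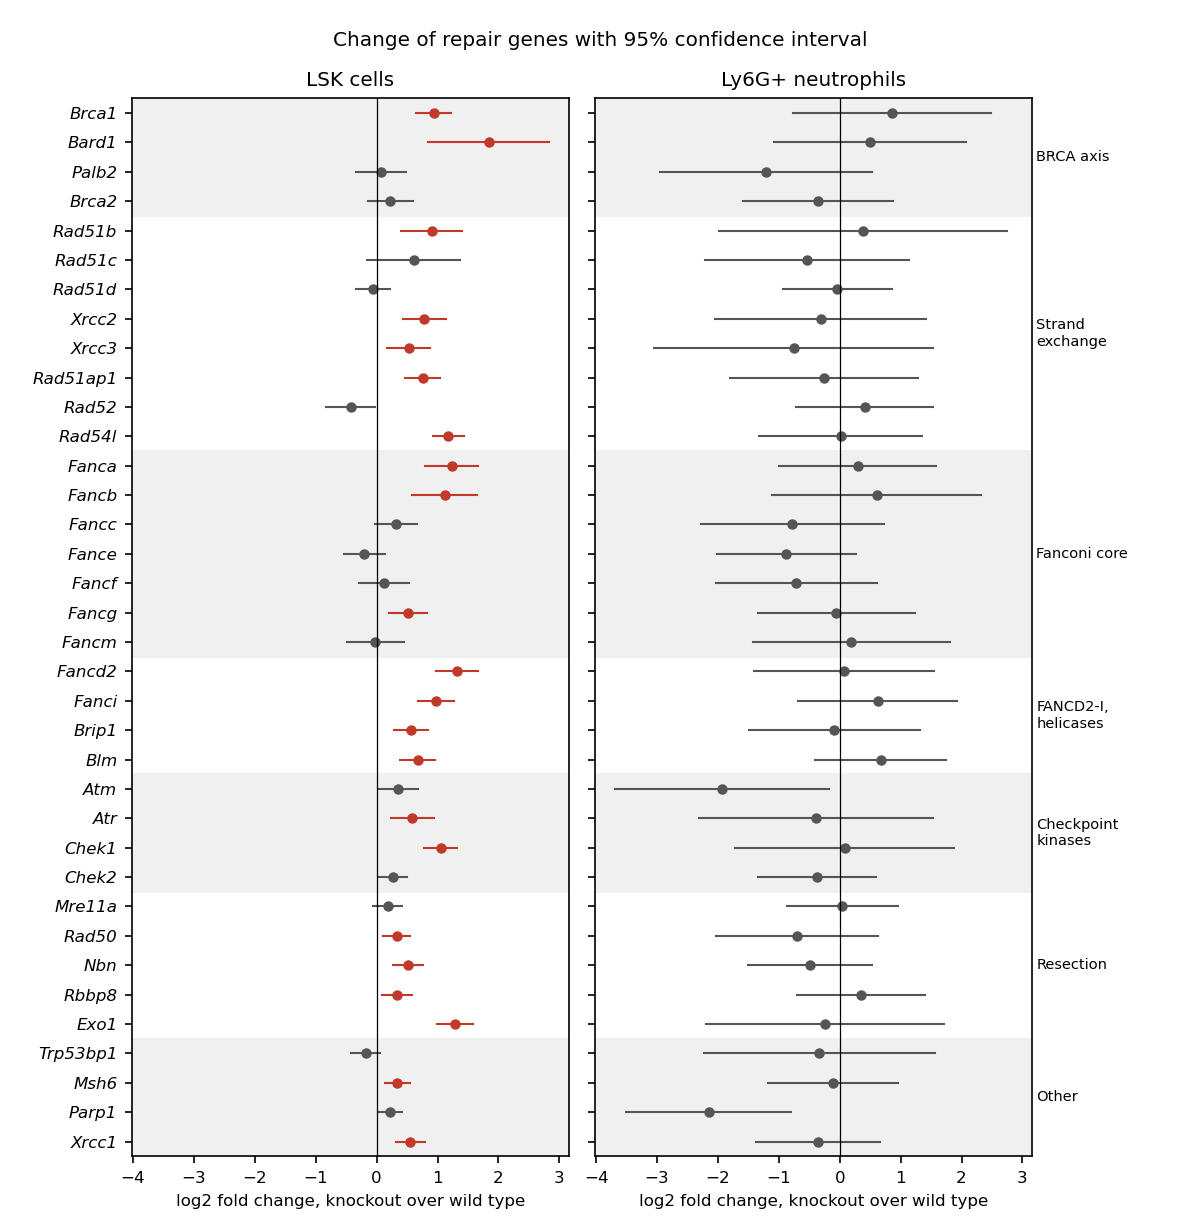
Log2 fold change of each repair gene, knockout over wild type, with its 95% confidence interval, in LSK cells (left) and neutrophils (right) on the same scale. Red marks the 22 genes that passed in LSK cells, and no gene passed in neutrophils, where the intervals were wider.

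Parp1 was the member with the smallest p in neutrophils. It stood at 44.0 and 70.3 CPM in wild-type libraries against 22.6, 9.003 and 7.03 CPM in knockout libraries (log2 -2.15, SE 0.571, unadjusted p = 0.00692, adjusted p = 0.216, edgeR). All 3 knockout libraries were below both wild-type libraries, and the gene passed with the DESeq2 Wald test (adjusted p = 0.0185) or without the filter on low counts (adjusted p = 0.0274). Its adjusted p ranged from 0.0527 to 0.539 under the other alternatives, and without the second wild-type and the third knockout libraries, which leaves 1 wild-type library, its log2 fold change was -1.49. Atm stood at 2.95 and 6.55 CPM in wild-type libraries against 1.82, 1.22 and 0.672 CPM in knockout libraries, with 11 to 218 reads a library (log2 -1.93, SE 0.744, adjusted p = 0.320). Without the second wild-type and the third knockout libraries its log2 fold change was -0.97. The highest level of both genes was in the second wild-type library, which is the richest in MHC class II and B cell transcripts. The first wild-type library also held more of these than any knockout library. Its MHC class II markers summed to 554 CPM against 17.3, 42.9 and 85.5 CPM in knockout. Its B cell markers summed to 78.6 CPM against 5.10, 3.32 and 10.6 CPM. The part of those cells in the result was not tested.

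The next members by p did not pass. Fance stood at 9.57 and 8.68 against 5.10, 6.36 and 3.48 CPM (log2 -0.88, adjusted p = 0.466). Palb2 stood at 4.20 and 5.56 against 3.79, 1.501 and 1.04 CPM (log2 -1.21, adjusted p = 0.506). Blm, the recombination helicase that had risen in LSK cells, stood at 5.05 and 5.50 against 9.28, 6.99 and 8.99 CPM (log2 0.67, adjusted p = 0.548). Each of the 3 kept its genotypes apart, and none of them passed under any alternative tried.

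Several genes with rises in LSK cells differed most, in neutrophils, between the wild-type libraries. Exo1 stood at 12.6 and 1.65 CPM in the wild-type libraries and at 8.37, 4.42 and 5.20 CPM in knockout. Chek1 stood at 10.3 and 2.01 against 9.14, 4.07 and 6.42 CPM, Rad51ap1 at 23.3 and 5.26 against 12.3, 8.25 and 15.4 CPM, and Rad54l at 25.8 and 7.69 against 20.8, 12.5 and 17.4 CPM. In all 4 the knockout libraries lay between the first and the second wild-type library, which differed 3.35-fold to 7.62-fold. Brca1 stood at 6.90 and 2.07 against 11.9, 7.50 and 5.07 CPM and Fancd2 at 10.9 and 5.35 against 14.3, 6.63 and 4.77 CPM, with the genotypes overlapping.

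**Figure D4:**
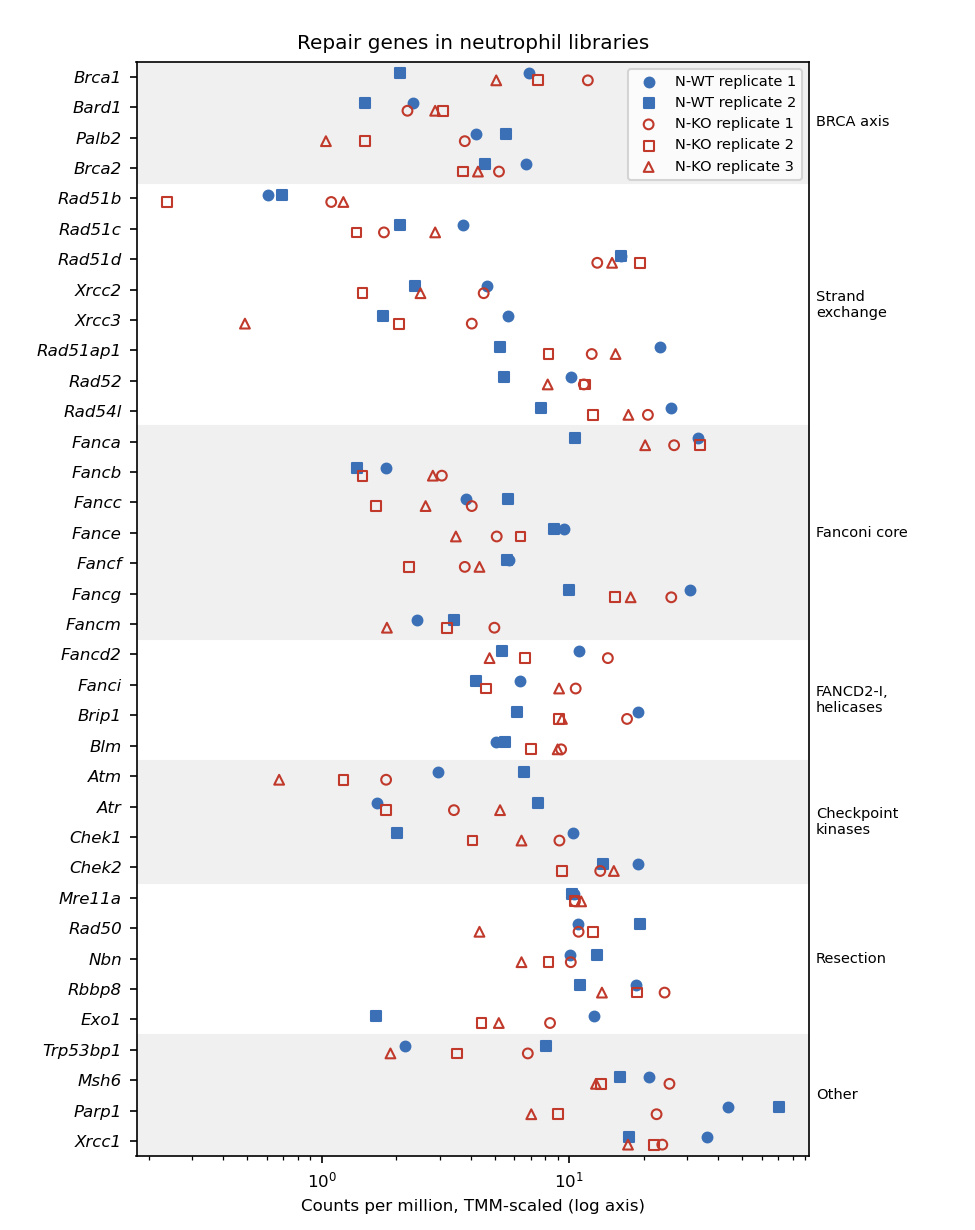
Levels of the 36 repair genes in each neutrophil library, in TMM-scaled CPM on a log axis, with wild-type libraries as filled blue and knockout libraries as open red symbols. The 2 wild-type symbols lie far apart for Exo1, Chek1, Rad51ap1 and Rad54l, with the knockout symbols between them.

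Compared with the first wild-type neutrophil library, the second had lower levels of 24 members and higher levels of 12. The 24 included 17 of the 22 genes that rose in knockout LSK cells. Among the 12 were Atr (1.67 and 7.45 CPM), Trp53bp1 (2.17 and 8.08 CPM), Atm, Rad50 and Parp1. The share of all genes that were lower in the second library was not counted. Whether these counts differ from those of other genes is therefore not known. The TMM factors of the first and second library were 1.09 and 1.58. The same libraries held 2246 and 628 CPM of the S phase genes and 11612 and 822 CPM of the granulocyte precursor markers, while the knockout libraries held 1790, 1070 and 1442 CPM and 6123, 2038 and 5651 CPM. Their part in the values of the repair genes was not tested.

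Whether the effect of genotype differed between LSK cells and neutrophils was tested as an interaction over all 9 libraries. None of the 36 genes passed, and 4 of 13815 genes did, all with a negative difference (0.0290%, edgeR). At an unadjusted p under 0.05 stood 3 members and 15.7% of genes. The difference, LSK effect minus neutrophil effect, was above 0 for 34 members, with a median of 0.92 on the log2 scale against 0.21 over all genes tested, a median that library totals moved by 0.44. The 5 members with the smallest p were Parp1 (difference 2.40, SE 0.743, adjusted p = 0.223), Atm (2.30, adjusted p = 0.233), Nbn (1.03, adjusted p = 0.299), Xrcc1 (0.96, adjusted p = 0.393) and Rad54l (1.23, adjusted p = 0.430). With DESeq2 Parp1 passed (adjusted p = 0.0393). Without the second wild-type and the third knockout neutrophil libraries, an omission chosen after seeing the data, 5 members passed. The neutrophil wild type is then 1 library, which is assumed to vary as the other groups do. The 5 were Exo1, Fanca, Rad51ap1, Rad54l (difference 1.85, adjusted p = 0.0404) and Xrcc1 (1.27, adjusted p = 0.0251), among 1047 genes with a positive and 786 with a negative difference of 14144 tested.

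In wild type, 4 of the 36 genes (11.1%) were higher in LSK cells than in neutrophils and 1 (2.78%) was lower. Over all 13815 genes tested, 11.5% were higher, near the share of the members, and 13.8% were lower. The tables of the populations had been counted apart, so this comparison also holds any difference in counting, and its values are on 1 TMM scale over all 9 libraries. Msh6 stood at 142 and 128 CPM in LSK cells and at 34.0 and 24.9 CPM in neutrophils (log2 2.19, SE 0.407, adjusted p = 0.00938). Mre11a stood at 41.0 and 38.6 against 16.9 and 16.0 CPM (log2 1.27, SE 0.245, adjusted p = 0.0106), Blm at 18.4 and 20.2 against 8.15 and 8.52 CPM (log2 1.21, adjusted p = 0.0249) and Trp53bp1 at 51.7 and 55.8 against 3.50 and 12.5 CPM (log2 2.74, adjusted p = 0.0303). Fanca went the other way, at 6.45 and 9.40 CPM in LSK cells and 53.7 and 16.3 CPM in neutrophils (log2 -2.14, SE 0.564, adjusted p = 0.0293). In all 5 the populations did not overlap. Both LSK libraries lay above both neutrophil libraries for 25 members and below them for Bard1, Rad51c and Fanca, where 38.4% of all genes tested lay above and 30.9% below.

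These 5 calls rested on few libraries. None of them held without wild-type LSK library 1 or 2 (adjusted p from 0.0625 for Msh6 to 0.201 for Fanca), and Blm, Trp53bp1 and Fanca also failed without either knockout LSK library (adjusted p from 0.0649 to 0.0693). Without the first wild-type neutrophil library, which leaves 1 in that group, the log2 fold change of Fanca was -1.004, against -2.14 with all libraries. The library left is the second, which stood apart by its MHC class II and B cell transcripts. The part of those cells in this comparison was not tested. With library totals in place of TMM factors, which moved the median of all genes by 1.0045 on the log2 scale, 18 members were higher in LSK cells and 0 lower. Of the calls over all genes, 81.8% were then higher in LSK cells, against 45.4% with TMM factors.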

How the data were processed

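Per the labels' protocols, polyadenylated RNA came from an RNeasy Micro extraction and was amplified with a SMART-Seq v4 kit for low input, which does not mark strand. Among the tools in the submitters' processing notes are STAR, featureCounts, DESeq2 and bcl2fastq, with the builds mm10 and GRCm38. Their versions, the annotation and the strand setting were not given in the sources used. Per the file headers and values, the authors deposited raw read counts per gene for each population, which were tested here, and a normalized signal per population, which equalled the raw counts divided by 1 factor per library and served as a check.

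LSK identifiers were matched to symbols through GENCODE M21 (35412 of 37187), neutrophil symbols likewise (42653 of 45076), and 35217 genes were joined for fits over both tables. The test on counts was edgeR 4.0.16 under R 4.3.3, with TMM factors, expression filter by group, robust quasi-likelihood fit, Benjamini-Hochberg adjustment over all genes tested, threshold 0.05. CPM values are scaled by TMM; per-kilobase values divide by the merged exon bases of coding transcripts. The procedure was tested on simulated data. No 2 replicates matched within sampling noise (lowest chi-square per gene 9.39). Reads carry no molecular identifiers, so the floor covers counting error only.

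The alternatives were upper-quartile scaling, DESeq2 size factors, the DESeq2 1.42.0 Wald test, no filter, a replicate block, each library left out, and a fit over all 9 libraries. A group left with 1 library was assumed to vary as the other groups do. Chosen after seeing the data were library totals without TMM factors and the removal of 2 neutrophil libraries. Members and lists were chosen with earlier results of these data known. Values in every library are given for members past the threshold and for those of highest and lowest level per kilobase of each role, SE and adjusted p for the 12 smallest p-values in the LSK genotype comparison, up to 4 genes of smallest p from each other list, and the 5 members of smallest p where fewer than 5 passed. Results of some genes of these lists are not reported here.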

Additional observations from a re-analysis of the deposited data

How the results depend on the processing

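The 22 members that rose in LSK cells rested on 2 libraries a group. With each LSK library left out, 16 to 22 members rose, among 1848 to 2902 genes higher and 1676 to 2816 lower. The fit over all 9 libraries called 0 members and 0 genes in either direction in LSK cells, and 120 higher and 442 lower in neutrophils. Upper-quartile scaling added 1 member that fell and lost the rises of Msh6, Rad50 and Rbbp8. Library totals added 2 that fell and lost the rises of Fancg, Msh6, Rad50, Rbbp8 and Xrcc3. In neutrophils, DESeq2 called 278 genes higher and 613 lower with 1 member lower, no filter 76 and 258 with 1 member lower, library totals 2 and 1, and leaving out each library 0 to 207 higher and 0 to 394 lower. For the difference of effects, DESeq2 gave 577 higher and 465 lower with 1 member higher, no filter 5 higher, leaving out both unusual neutrophil libraries 1047 and 786 with 5 members higher, and leaving out each library 0 to 766 and 0 to 640. Between the wild-type populations, DESeq2 called 8 members higher and 2 lower, library totals 18 and 0 among 3863 and 860 genes, and leaving out each library 0 to 7 and 0 to 3 members among 141 to 2424 and 213 to 2637 genes. Of the DESeq2 calls over all genes between the wild-type populations, 46.05% were higher in LSK cells. Members near 0 changed sign in LSK cells. Palb2 was -0.023 with upper-quartile scaling, -0.088 with library totals and -0.12 to 0.28 with each library left out. Fancf was -0.043 with library totals and -0.041 without the second wild-type library, and Rad51d was -0.15 to 0.043 with each library left out, with 0.024 without the first knockout library. Fancm was 0.0034 with DESeq2 size factors, 0.0037 with the DESeq2 Wald test, 0.0017 without the filter and -0.27 to 0.30 with each library left out, with 0.094 without the first knockout library. Spop in neutrophils was -0.0031 with upper-quartile scaling, -0.58 with library totals and -0.037 (without the first wild-type library) to 0.40 with each library left out. Replicate numbers were not treated as pairs. Deviations of same-numbered libraries from their group means correlated at 0.0039 in LSK cells and at 0.2387 and -0.0241 in neutrophils. In a group of 2 libraries the deviations mirror each other, so these values cannot show whether the numbers pair the samples. With the replicate block, the 22 members in LSK cells remained, 86 genes were higher and 248 lower in neutrophils, 0 genes were lower in the difference of effects, 0 members were lower between populations, and Fancm was 0.0041. The cause of these changes was not tested.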

Other observations

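In neutrophils the lists around the 36 genes also held no gene that passed the edgeR test. The 33 other homologous recombination and Fanconi genes had a median log2 fold change of -0.01, with 16 above 0 and 17 below, and the 20 other checkpoint genes a median of -0.10. All 6 other mismatch repair genes lay below 0, with a median of -0.96, where 6304 of 12836 genes tested lay below 0. They summed to 48.2 and 65.9 CPM in wild-type libraries against 45.0, 26.9 and 23.1 CPM in knockout libraries. The highest sum was in the second wild-type library, the richest in MHC class II and B cell transcripts. The part of those cells in these sums was not tested. The 18 p53 target genes summed to 391 and 680 CPM in wild-type libraries against 672, 881 and 861 CPM in knockout libraries. The 24 genes of G2 and M phase summed to 2307 and 466 CPM in wild-type libraries against 2175, 1537 and 1972 CPM in knockout libraries.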
